A study of Homo sapiens with 9 samples.

Results

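The genes described here are the 10 that encode the subunits and the main inhibitors of the transcription factor NF-kB: the subunits NFKB1, NFKB2, RELA, RELB and REL, the inhibitors NFKBIA, NFKBIB and NFKBIE, the feedback enzyme TNFAIP3 and the nuclear regulator BCL3. They were taken by symbol from the 60649 genes of the count table, in which each symbol has 1 row. RNA was sequenced from MDA-MB-231, an established cell line from a human breast tumour of the triple-negative kind, in 9 libraries. Of these, 3 came from cells with the pLKO-GFP control vector, 3 from cells with the short hairpin RNA shAHR#2 and 3 from cells with shAHR#3, both directed against AHR, the aryl hydrocarbon receptor, a ligand-activated transcription factor. All cells were proliferating in DMEM with fetal bovine serum and, per the methods of the study, had been transduced with lentivirus, selected with puromycin and used as pools of the surviving cells rather than as clones. The study numbers its hairpins otherwise than the labels do, so the target site of each hairpin is not assigned here. The labels do not say whether the replicates were separate cultures, and p-values therefore measure the spread between these libraries, which may be technical.

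NF-kB is a family of dimers. RELA, RELB and REL carry an activation domain, while NFKB1 and NFKB2 encode the precursors p105 and p100, from which the subunits p50 and p52 are cut. In resting cells the inhibitors NFKBIA, NFKBIB and NFKBIE (IkB alpha, beta and epsilon) hold dimers in the cytoplasm until the IKK kinase complex marks them for degradation. RELA with p50 is the usual dimer of this canonical route, and RELB with p52 that of the noncanonical route, which runs through the kinase MAP3K14. TNFAIP3 (A20) is an enzyme that edits ubiquitin chains and shuts the signal down, and BCL3 is a nuclear member of the IkB family that binds p50 and p52 dimers. NFKBIA, TNFAIP3, BCL3, NFKB2 and RELB are themselves known NF-kB target genes. Levels below are those of messenger RNA, and say nothing of the degradation or nuclear entry of the proteins.

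Total counts were 17407688 to 19509030 per pLKO-GFP library, 15991396 to 19112459 per shAHR#2 library and 19436825 to 20374460 per shAHR#3 library. The hairpin target AHR was at 35.3% of the control level with shAHR#2 and at 40.4% with shAHR#3 in the fit. Of the epithelial markers KRT8, KRT18 and KRT19 had at least 1709 reads in every library. CDH1 had 14 to 20 reads in pLKO-GFP, 24 to 40 with shAHR#2 and 72 to 94 with shAHR#3. PGR was at 0 in every library, ESR1 at 0 to 4 reads and ERBB2 at 974 to 1550 reads. The T cell marker CD3E was at 0, while the summed level of the leukocyte markers was 1.47 to 1.82 CPM (TMM-normalised read count per megaread of the library) in pLKO-GFP, 4.05 to 5.36 with shAHR#2 and 3.22 to 3.63 with shAHR#3. For 4 endothelial markers the sums were 6.43 to 6.95, 11 to 13.2 and 12.1 to 13.9 CPM, with CDH5 and VWF at 0 in pLKO-GFP. The members of these lists did not move together: PECAM1 was higher with the hairpins (2.15 to 2.71 CPM in pLKO-GFP, then 10 to 12.3 and 11.5 to 12.5), while KDR was lower (4.1 to 4.29 CPM, then 0.578 to 0.644 and 0.103 to 0.586). Among the leukocyte markers CD14 was at 0.849 to 1.06 CPM in pLKO-GFP and lower with the hairpins, at 0.253 to 0.429 and 0.463 to 0.819. PTPRC was higher, at 0.0565 to 0.2 CPM in pLKO-GFP, then 0.886 to 1.77 and 0.716 to 1.46. LYZ was also higher, at 0.452 to 0.658 CPM, then 2.89 to 3.16 and 1.12 to 2.1. Of the mesenchymal or basal markers VIM was at 2620 to 2660 CPM in pLKO-GFP and higher with the hairpins (3840 to 3950 and 3300 to 3370). EGFR, at 461 to 497 CPM in pLKO-GFP, was lower (186 to 189 and 313 to 341). CD44, at 801 to 825 CPM, was also lower (685 to 698 and 566 to 590). The part of these shifts in the results was not tested. In bulk RNA, fewer cells with a transcript and less transcript per cell cannot be told apart.

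The quasi-likelihood test of edgeR was run on 14274 genes, its p-values were adjusted by Benjamini-Hochberg over all of them, and 0.05 was the threshold. All 10 genes passed the filter on low counts, and their counts ran from 35 reads (NFKBIB in an shAHR#2 library) to 1929 reads (RELA in an shAHR#3 library). With shAHR#2 against pLKO-GFP 6 were higher and 2 lower. With shAHR#3 against pLKO-GFP 3 were higher and 3 lower. When shAHR#3 was compared with shAHR#2, 1 was higher and 6 were lower. The test called a large share of all genes, 65.8% (32.6% higher and 33.2% lower) with shAHR#2, 54.4% (26.9% higher and 27.5% lower) with shAHR#3 and 42.3% (21.9% higher and 20.4% lower) between the hairpins. Against that background the number of members called, 8, 6 and 7 of 10, is no result about the group, and the sizes and directions of single genes are what the following describes. A change of at least 1.5-fold was called for 3, 2 and 1 of the 10, and for 24.8%, 14.2% and 9.23% of all genes. The median log2 fold change of the 10 was 0.35 with shAHR#2 and -0.003 with shAHR#3, where that of all genes tested was -0.003 and 0. Both comparisons with pLKO-GFP share the same control libraries.

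**Figure D1:**
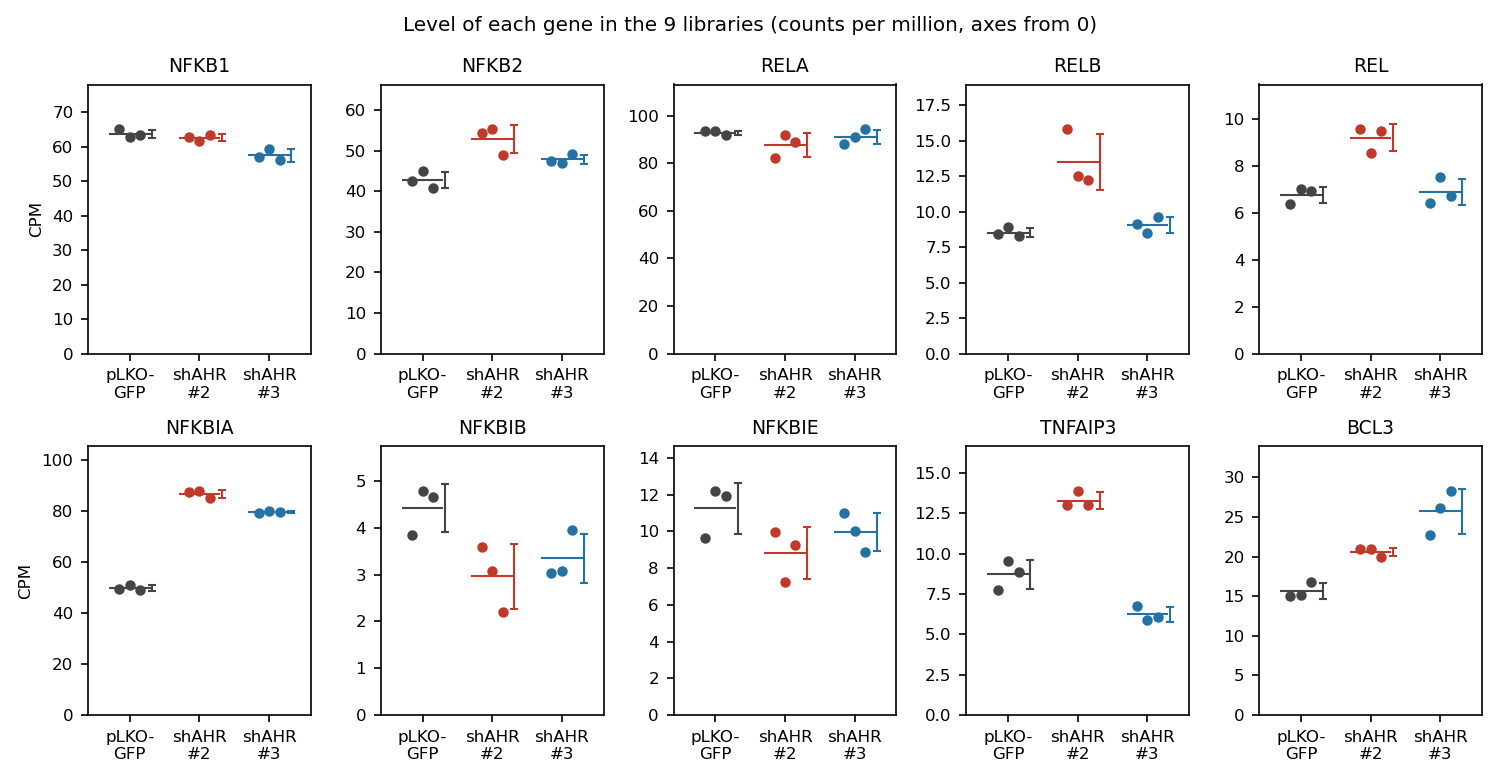
Level in CPM (y axes, from 0) of each of the 10 genes in every library of pLKO-GFP (grey), shAHR#2 (red) and shAHR#3 (blue); points are libraries, horizontal lines group means and vertical bars 1 SD (n = 3). NFKBIA stood apart from the control with both hairpins, while the TNFAIP3 points lay above the control with shAHR#2 (13 to 13.9 CPM) and below it with shAHR#3 (5.88 to 6.74 CPM).

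The start regions of the inhibitor and feedback genes are shown first, because several of these genes are known to be driven by NF-kB itself. RefSeq start sites (GRCh38.p14) were matched for 8 of the 10 genes, not for RELB and NFKBIE, giving 13 windows of 250 bases before a start. They were searched on both strands for the kB consensus (G, G, G, a purine, any base, any base, a pyrimidine, a pyrimidine, C, C) and for the core of the AHR response element, GCGTG. Capitals mark the matches, which overlap in places, on the strand of the gene from 5′ to 3′. The windows shown are those of NFKBIA and BCL3, which rose with both hairpins, and of TNFAIP3, which rose with one and fell with the other, for NFKBIA at chr14:35404750-35404999 on the minus strand, for TNFAIP3 at chr6:137867009-137867258 on the plus strand and for BCL3 at chr19:44748458-44748707 on the plus strand.
NFKBIA: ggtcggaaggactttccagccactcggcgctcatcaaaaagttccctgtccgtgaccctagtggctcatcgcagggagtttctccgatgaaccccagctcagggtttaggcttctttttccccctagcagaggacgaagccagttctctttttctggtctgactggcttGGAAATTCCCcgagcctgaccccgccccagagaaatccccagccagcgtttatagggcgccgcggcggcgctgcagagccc
TNFAIP3: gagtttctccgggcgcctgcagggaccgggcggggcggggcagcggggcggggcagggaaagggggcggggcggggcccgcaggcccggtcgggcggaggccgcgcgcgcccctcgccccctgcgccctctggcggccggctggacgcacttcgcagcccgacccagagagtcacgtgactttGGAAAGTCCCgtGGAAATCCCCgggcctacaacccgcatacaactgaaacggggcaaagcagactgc
BCL3: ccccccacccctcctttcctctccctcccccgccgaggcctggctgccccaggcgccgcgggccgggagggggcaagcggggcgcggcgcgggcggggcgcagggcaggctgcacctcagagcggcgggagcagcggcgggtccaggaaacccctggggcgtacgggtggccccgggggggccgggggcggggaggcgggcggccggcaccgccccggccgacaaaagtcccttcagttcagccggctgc

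The NFKBIA window held 1 match to the kB consensus, from base -81 to -72 before the start, GGAAATTCCC as read on the gene's strand. TNFAIP3 held 2, GGAAAGTCCC from -67 to -58 and GGAAATCCCC from -55 to -46. The BCL3 window, which lies downstream of the first start that GENCODE gives for the gene, held none. None of these 3 windows held the AHR core. Elsewhere in the family the consensus was found in 1 window of NFKB1 (GGGAATTTCC, -49 to -40), in the window of REL, in 1 of 2 windows of NFKBIB and in 2 windows of NFKB2, one with GGGAATTCCC from -107 to -98 and the other with GGGACTTTCC from -21 to -12. In all, 6 of the 8 matched genes had a window with the kB consensus, and 7 of 13 windows, where 9.95% of 34943 RefSeq windows of the same length did. The AHR core was found in 6 of the 13 windows, of NFKB1, NFKB2, RELA, REL and NFKBIB, and in 32.2% of all windows. Of the genes with the consensus, NFKBIA and NFKB2 were higher with both hairpins and NFKBIB lower with both, its shAHR#3 call being unstable. Of the others with it, REL rose with shAHR#2, NFKB1 fell with shAHR#3 and TNFAIP3 moved in opposite directions. BCL3, without it in this window, was higher with both. Whether the matches bear on the changes was not tested. These are matches of letters and not sites shown to be bound.

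NFKBIA (ENSG00000100906.11; GRCh38 chromosome 14, 35401079 to 35404749, minus strand), whose product is the inhibitor that NF-kB rebuilds fastest after a signal, had the largest rise of the 10 with shAHR#2. It was at 49.3, 51.2 and 49.2 CPM in the pLKO-GFP libraries, at 87.5, 88 and 85.1 CPM with shAHR#2 and at 79.2, 80.2 and 79.7 CPM with shAHR#3. Neither hairpin's libraries overlapped the control. The log2 fold change was 0.80 (standard error, SE, 0.04, adjusted p = 4.14e-19, edgeR) with shAHR#2, or 1.74-fold, and 0.68 (SE 0.04, adjusted p = 1.17e-16) with shAHR#3, or 1.60-fold. These changes exceeded in size those of 82.6% and 86.7% of the genes tested. The level with shAHR#3 was below that with shAHR#2 by a small amount, a log2 difference of -0.12 (adjusted p = 0.00973).

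NFKBIB and NFKBIE, the other cytoplasmic inhibitors, were lower where they changed. NFKBIB (ENSG00000104825.17; chromosome 19, 38899700 to 38908893) had 68, 96 and 92 reads in the pLKO-GFP libraries, 67, 48 and 35 with shAHR#2 and 59, 60 and 81 with shAHR#3. In CPM the shAHR#2 libraries (2.21 to 3.59) lay below the control (3.84 to 4.79), and the shAHR#3 libraries (3.03 to 3.95) overlapped it. The log2 fold change was -0.57 (SE 0.18, adjusted p = 0.00623) with shAHR#2 and -0.40 (SE 0.17, adjusted p = 0.0465) with shAHR#3. This low gene gave the least stable calls. The shAHR#2 call was lost without shAHR#2 replicate 3 (-0.40, adjusted p = 0.0679). The shAHR#3 call was lost with DESeq2 (adjusted p = 0.106), and without pLKO-GFP replicate 2 (-0.34), pLKO-GFP replicate 3 (-0.37), shAHR#3 replicate 1 (-0.33) or shAHR#3 replicate 2 (-0.34).

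NFKBIE (ENSG00000146232.17; chromosome 6, 44258166 to 44265788) was at 9.66, 12.2 and 11.9 CPM in pLKO-GFP, 9.98, 7.26 and 9.24 CPM with shAHR#2 and 11, 10 and 8.89 CPM with shAHR#3. Both hairpin groups overlapped the control, whose replicate 1 was low. It fell by 0.35 on the log2 scale with shAHR#2 (SE 0.12, adjusted p = 0.00928), a call lost without pLKO-GFP replicate 2 (-0.29, adjusted p = 0.0566) or without shAHR#2 replicate 2 (-0.23, adjusted p = 0.108). With shAHR#3 the log2 fold change was -0.18 (95% interval -0.41 to 0.04, adjusted p = 0.165), and it passed the threshold without pLKO-GFP replicate 1 (-0.28, adjusted p = 0.047). The hairpins did not differ beyond the spread for NFKBIB (0.17, 95% interval -0.22 to 0.55) or NFKBIE (0.165, 95% interval -0.08 to 0.41).

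TNFAIP3 (ENSG00000118503.15; chromosome 6, 137867214 to 137883314, plus strand) was the one member that passed the threshold in opposite directions with the hairpins. It was at 7.74, 9.54 and 8.86 CPM in pLKO-GFP, at 13, 13.9 and 13 CPM with shAHR#2 and at 6.74, 5.88 and 6.1 CPM with shAHR#3. The 3 groups did not overlap, with shAHR#2 highest and shAHR#3 lowest. It rose by 0.61 with shAHR#2 (SE 0.10, adjusted p = 3.19e-06) and fell by 0.49 with shAHR#3 (SE 0.11, adjusted p = 4.32e-04). The comparison of shAHR#3 with shAHR#2 gave -1.09 (95% interval -1.31 to -0.87, adjusted p = 1.08e-10), so the level with shAHR#2 was 2.13 times that with shAHR#3. That difference was larger in size than those of 96.4% of the genes tested. Leaving out any of the 9 libraries kept it between -1.15 and -1.05.

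BCL3 (ENSG00000069399.15; chromosome 19, 44747705 to 44760044) rose with both hairpins, and more with shAHR#3, the reverse of the order seen for NFKBIA. It was at 15, 15.2 and 16.8 CPM in pLKO-GFP, 20.9, 20.9 and 20 CPM with shAHR#2 and 22.7, 26.1 and 28.3 CPM with shAHR#3. Again the 3 groups did not overlap. The log2 fold change was 0.40 (SE 0.08, adjusted p = 9.59e-05) with shAHR#2 and 0.72 (SE 0.08, adjusted p = 9.85e-10) with shAHR#3, or 1.31-fold and 1.64-fold. The difference between the hairpins, 0.32 (adjusted p = 9.41e-04), also passed the threshold.

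**Figure D2:**
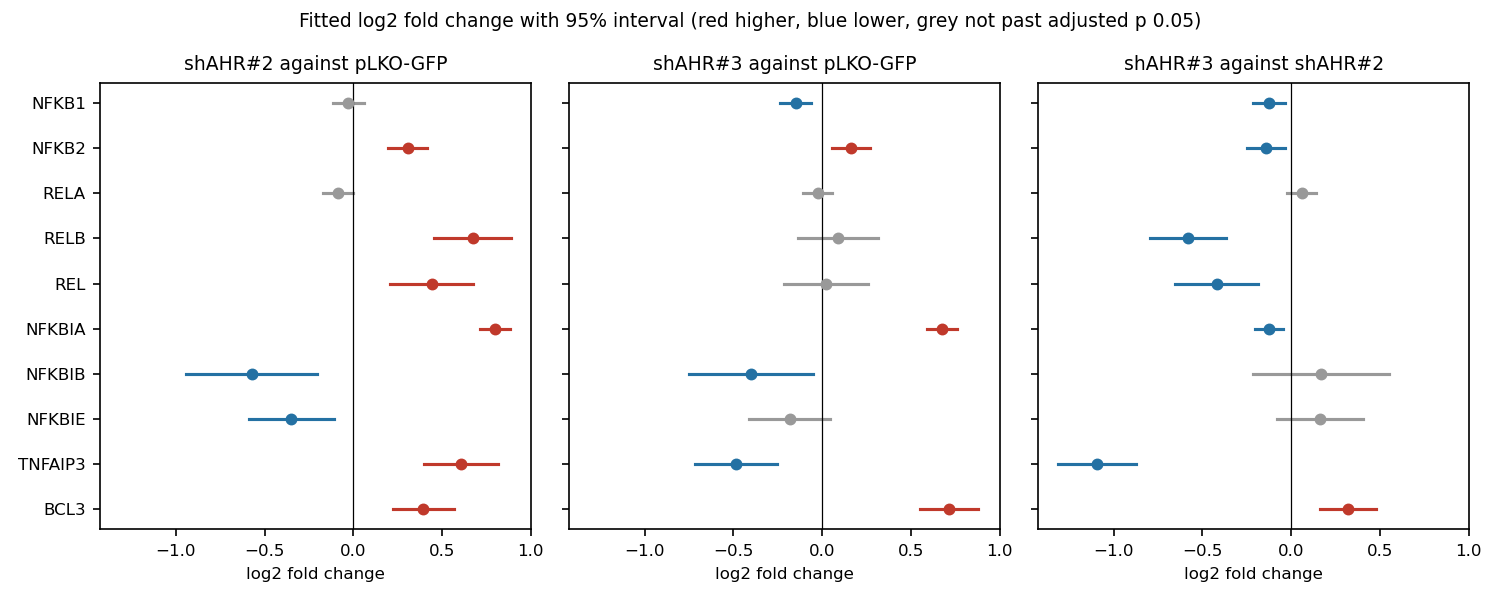
Fitted log2 fold change (x axis) of the 10 genes in the 3 comparisons, with 95% intervals of the fit; red is higher, blue lower and grey not past an adjusted p of 0.05. NFKBIA and BCL3 lay to the right in both comparisons with pLKO-GFP, the interval of RELA with shAHR#3 held 0, and TNFAIP3 had the largest difference between the hairpins (-1.09).

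Among the subunits, those of the canonical dimer changed little. RELA (ENSG00000173039.19; chromosome 11, 65653599 to 65663090, minus strand) was at 93.3, 93.3 and 91.8 CPM in pLKO-GFP, 82.1, 91.7 and 89.0 CPM with shAHR#2 and 88.2, 90.8 and 94.2 CPM with shAHR#3. The shAHR#2 libraries lay just under the control, with replicate 1 the lowest, and the shAHR#3 libraries overlapped it. The log2 fold change was -0.09 (95% interval -0.17 to -0.003, adjusted p = 0.0637) with shAHR#2 and -0.03 (95% interval -0.11 to 0.05, adjusted p = 0.600) with shAHR#3. The former passed the threshold without shAHR#2 replicate 2 (-0.12, adjusted p = 0.0275) and without shAHR#3 replicate 3 (-0.09, adjusted p = 0.0451).

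NFKB1 (ENSG00000109320.13; chromosome 4, 102501330 to 102617302) was at 65.0, 62.9 and 63.3 CPM in pLKO-GFP, 62.7, 61.5 and 63.5 CPM with shAHR#2 and 56.9, 59.4 and 56.0 CPM with shAHR#3. Only the shAHR#3 libraries stood apart, all of them lower than the other 6. It fell by 0.15 with shAHR#3 (SE 0.04, adjusted p = 0.00339), to 0.901 of the control. With shAHR#2 the log2 fold change was -0.03 (95% interval -0.12 to 0.06, adjusted p = 0.609). The difference between the hairpins, -0.12 (adjusted p = 0.0221), was lost without a filter on low counts (adjusted p = 0.0669) and without shAHR#2 replicate 3 (-0.12), shAHR#3 replicate 1 (-0.12) or shAHR#3 replicate 3 (-0.11).

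NFKB2 (ENSG00000077150.20; chromosome 10, 102394110 to 102402524), which supplies p52 for the noncanonical dimer, rose with both hairpins. It was at 42.6, 44.9 and 40.8 CPM in pLKO-GFP, 54.5, 55.3 and 48.9 CPM with shAHR#2 and 47.5, 47.1 and 49.2 CPM with shAHR#3. All 6 hairpin libraries were above all 3 controls. The log2 fold changes were 0.31 (SE 0.05, adjusted p = 5.07e-06) and 0.16 (SE 0.05, adjusted p = 0.00891). Without pLKO-GFP replicate 3 the shAHR#3 value was 0.13 and no longer passed (adjusted p = 0.0679). The difference between the hairpins, -0.14 (adjusted p = 0.0264), was lost without shAHR#2 replicate 1 (-0.13), shAHR#2 replicate 2 (-0.12), shAHR#3 replicate 1 (-0.14) or shAHR#3 replicate 2 (-0.13).

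RELB and REL rose with shAHR#2. RELB (ENSG00000104856.14; chromosome 19, 45001461 to 45038192), the partner of p52, was at 8.41, 8.89 and 8.25 CPM in pLKO-GFP, 15.8, 12.5 and 12.2 CPM with shAHR#2 and 9.10, 8.49 and 9.62 CPM with shAHR#3. All shAHR#2 libraries were above the other 6, replicate 1 the farthest. The log2 fold change with shAHR#2 was 0.67 (SE 0.11, adjusted p = 9.37e-07), and 0.54 without the highest library. With shAHR#3 it was 0.09 (95% interval -0.13 to 0.32, adjusted p = 0.513), and the hairpins differed by -0.58 (adjusted p = 1.88e-05).

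REL (ENSG00000162924.15; chromosome 2, 60881491 to 60931612), which encodes c-Rel, was at 6.38, 6.99 and 6.94 CPM in pLKO-GFP, 9.55, 8.54 and 9.49 CPM with shAHR#2 and 6.43, 7.52 and 6.69 CPM with shAHR#3. Its shAHR#2 libraries also lay above the other 6. The log2 fold change was 0.44 (SE 0.12, adjusted p = 0.00103) with shAHR#2 and 0.02 (95% interval -0.22 to 0.26, adjusted p = 0.895) with shAHR#3, and the hairpins differed by -0.42 (adjusted p = 0.00273). A long noncoding RNA overlaps 33.3% of the exon bases of REL on the same strand, so its count is uncertain. For RELA, NFKBIB, TNFAIP3 and BCL3 the overlap with another gene's exons was 1.89%, 1.72%, 1.47% and 2.10%. No overlap was found for the other 5 genes.

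Levels of different genes were compared per length of the canonical transcript, as CPM per kilobase (RPKM). In pLKO-GFP the order was RELA at 36.9 ± 0.357 RPKM, NFKBIA at 32 ± 0.742, NFKB1 at 15.7 ± 0.270, NFKB2 at 14.2 ± 0.687, BCL3 at 8.34 ± 0.512, NFKBIE at 4.81 ± 0.598, RELB at 3.77 ± 0.146, NFKBIB at 3.72 ± 0.433, TNFAIP3 at 1.87 ± 0.195 and REL at 0.609 ± 0.0304 RPKM (SD, n = 3 each). The libraries of RELB (3.66 to 3.94) and NFKBIB (3.22 to 4.02) overlapped, and those of the other neighbours in the order did not. With either hairpin NFKBIA, at 55.7 ± 0.988 and 51.1 ± 0.327 RPKM, took the first place from RELA, at 34.8 ± 1.98 and 36.2 ± 1.19. Per canonical transcript NFKB2 also passed NFKB1 with both, at 17.5 ± 1.15 against 15.4 ± 0.250 RPKM with shAHR#2 and 15.9 ± 0.364 against 14.2 ± 0.436 with shAHR#3. The place of NFKB1 depends on the length used: per union of all annotated exons it was at 4.07 RPKM in pLKO-GFP and sixth of the 10, below NFKB2 in all 3 groups, while RELA and NFKBIA stayed first and second in pLKO-GFP.

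**Figure D3:**
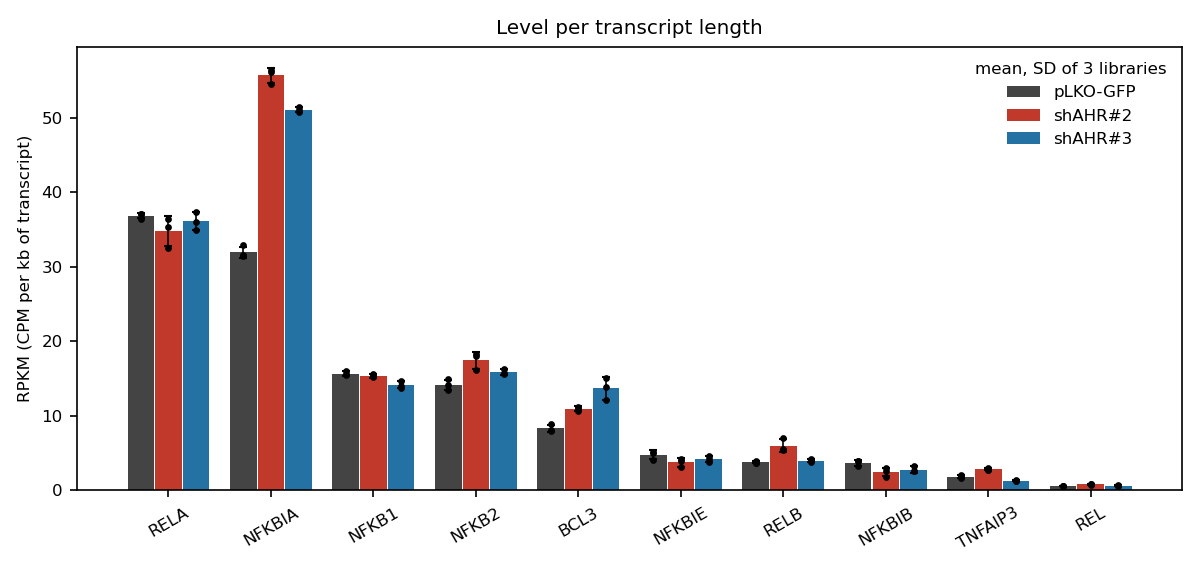
Level per transcript length (y axis, RPKM, from 0) of the 10 genes in pLKO-GFP (grey), shAHR#2 (red) and shAHR#3 (blue), in the order of the control; bars are means, whiskers 1 SD (n = 3) and points libraries. The NFKBIA bars rise from 32 to 55.7 and 51.1 RPKM, past those of RELA.

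The makeup of the family shifted accordingly at the level of RNA. The summed level of the 5 subunits was 69.9 to 72.1 RPKM in pLKO-GFP, 73.5 to 76.2 with shAHR#2 and 69.5 to 72.4 with shAHR#3. That of the 3 cytoplasmic inhibitors was 39.0 to 42.1, 60.4 to 63.4 and 58.0 to 58.3 RPKM. The ratio of inhibitor to subunit RNA was thus 0.545 to 0.584 in the control, 0.815 to 0.856 with shAHR#2 and 0.805 to 0.836 with shAHR#3, with no overlap between control and hairpins (0.656, 0.876 and 0.890 as group means per union of exons). NFKBIA made up 77.8% to 81.2% of the inhibitor RNA in the control, 88.5% to 90.9% with shAHR#2 and 87.6% to 88.2% with shAHR#3. Per canonical transcript, the ratio of NFKB2 to NFKB1 was 0.867 to 0.961, 1.04 to 1.21 and 1.07 to 1.18. That of RELB to RELA was 0.1 to 0.106 in the control and 0.104 to 0.115 with shAHR#3, which overlap, against 0.152 to 0.215 with shAHR#2. These sums and ratios were not tested.

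The changes of the members were set beside those of the genes near them and of their whole chromosomes. The tested genes within 1 Mb of NFKB2 had a median log2 fold change of -0.44 with shAHR#2 and -0.23 with shAHR#3, and 25 and 17 of the 30 were called lower and 0 higher, while NFKB2 itself rose. Of all genes 33.2% and 27.5% were called lower, and the medians over the 573 tested genes of chromosome 10 were -0.32 and -0.15, so the chromosome moved the same way. Around NFKB1 the 9 neighbours had medians of -0.52 and -0.27, beside -0.30 and -0.23 for chromosome 4. The neighbours of NFKBIA had medians of 0.33 and 0.25 over 16 genes, 11 and 9 of them called higher. Of all genes 32.6% and 26.9% were called higher. NFKBIA was above its neighbours' medians by 0.47 and 0.43. The medians of chromosome 14 were 0.23 and 0.15. Around TNFAIP3 the medians were 0.49 and 0.31, and 8 and 7 of 10 genes were called higher, beside the same shares of all genes. The medians of chromosome 6 were -0.06 and -0.06. With shAHR#2 TNFAIP3 was 0.12 above its neighbours' median, and with shAHR#3 its difference from that median was -0.80. BCL3 and RELB lie 241416 bases apart on chromosome 19 and the medians around them were 0.05 to 0.11. NFKBIB fell among neighbours with medians of 0.13 and 0.11.

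**Figure D4:**
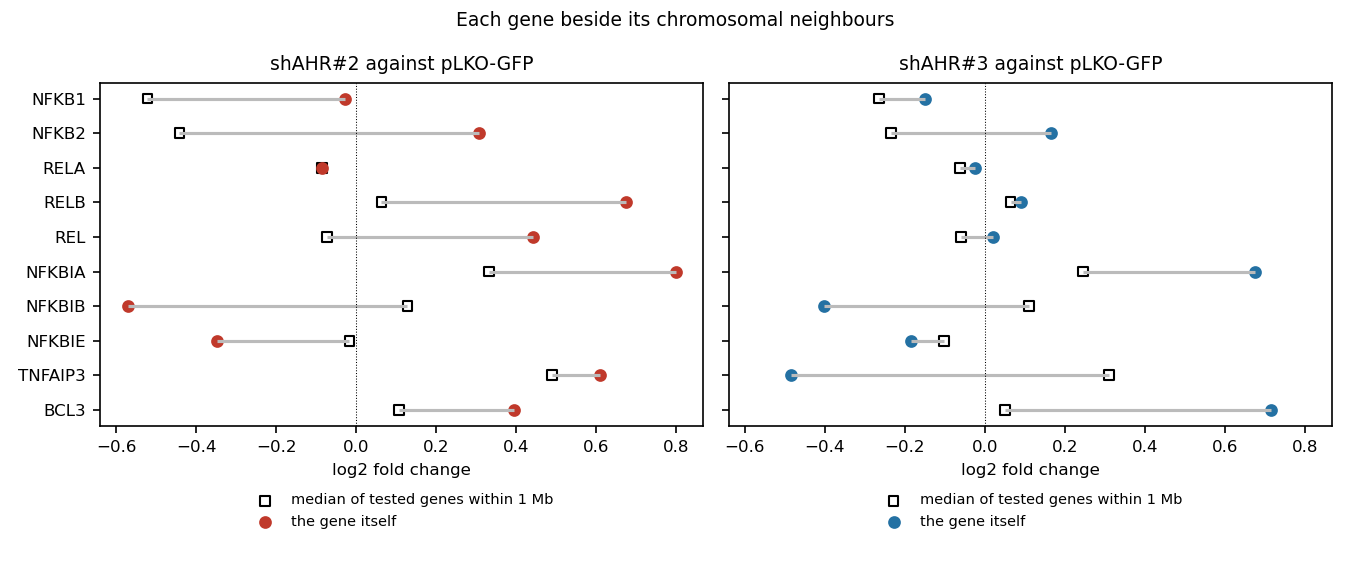
Log2 fold change (x axis) of each of the 10 genes (filled circles) and median over the tested genes within 1 Mb of it (open squares) with shAHR#2 (left) and shAHR#3 (right). NFKB2 rose beside neighbours with a median of -0.44 and -0.23, and TNFAIP3 with shAHR#3 (-0.49) lay opposite to its neighbours (0.31).

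The rest of the pathway was described from 5 lists of 94 genes, 84 of them tested, and values given in pairs are log2 fold changes with shAHR#2 and then shAHR#3. The list of the IKK complex and its upstream kinases, 14 genes with the non-kinase IKBKG and the adaptors TAB1, TAB2 and TAB3 among them, was called at 78.6% and 64.3%, where 65.8% and 54.4% of all genes were. In it shAHR#2 gave 4 rises and 7 falls, and shAHR#3 gave 3 and 6 (medians -0.04 and -0.10, where those of all genes tested were -0.003 and 0). MAP3K14 (NIK), the kinase of the noncanonical route, had a mean of 31.4 ± 3.06 CPM in pLKO-GFP, 49.2 ± 2.58 under shAHR#2 and 62 ± 1.02 under shAHR#3 (SD, n = 3). Its rise was 0.65 (adjusted p = 4.43e-12) and 0.98 (adjusted p = 2.31e-17). IKBKB, the main catalytic subunit of IKK for the canonical route, rose by 0.52 and 0.26 (adjusted p = 2.10e-11 and 3.16e-05). TAB3, an adaptor of the kinase TAK1, fell by 0.52 and 0.53, RIPK1, a kinase of the TNF receptor complex, fell by 0.33 and 0.18, and TBK1, an IKK-related kinase, fell by 0.66 and 0.20.

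Of the 15 adaptors and ubiquitin ligases tested 66.7% and 33.3% were called, the latter under the 54.4% of all genes. They split into 7 rises and 3 falls with shAHR#2, and 4 and 1 with shAHR#3 (medians 0.12 and 0.08). BIRC3, a ubiquitin ligase that is also a target gene of NF-kB, rose from 58.9 ± 2.59 CPM to 116 ± 3.44 and 95.8 ± 4.43, by log2 values of 0.98 and 0.70 (adjusted p = 1.45e-21 and 8.94e-17). BCL10, which joins antigen and other receptors to IKK, rose by 0.71 and 0.25. TRAF3, which holds MAP3K14 low, rose by 0.47 and 0.20. MALT1, the partner of BCL10, fell by 0.18 and 0.20 (adjusted p = 0.00385 and 0.00161).

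Other negative regulators, 16 genes, were divided with 5 higher and 7 lower with shAHR#2 and 6 higher and 3 lower with shAHR#3 (medians -0.02 and 0.05), or 75% and 56.2% called against 65.8% and 54.4% of all genes. NFKBIZ, a nuclear relative of BCL3, is in this list but is not solely an inhibitor. It went from 18.8 ± 0.143 CPM to 50.4 ± 2.5 and 31.1 ± 0.424, rises of 1.42 and 0.73 (adjusted p = 1.59e-21 and 3.31e-12). OTUD7B, a deubiquitinase, rose by 0.33 and 0.19. N4BP1 rose by 0.15 and 0.11 (adjusted p = 0.00551 and 0.0371), the latter lost with DESeq2 (0.11, adjusted p = 0.0859), with no filter on low counts (0.11) and without pLKO-GFP replicate 1 (0.10), pLKO-GFP replicate 2 (0.11), shAHR#3 replicate 1 (0.12) or shAHR#3 replicate 3 (0.09). OTULIN and CYLD, deubiquitinases that remove activating chains, fell by 0.40 and 0.45 and by 0.25 and 0.29. TNIP2, which binds TNFAIP3, fell by 0.30 and 0.20, and its shAHR#3 call was lost without pLKO-GFP replicate 2 (-0.16) or shAHR#3 replicate 2 (-0.145).

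Ligands and receptors had 7 higher and 6 lower of 15 tested with shAHR#2 and 5 and 6 with shAHR#3 (medians 0.22 and -0.18). That is 86.7% and 73.3% called against 65.8% and 54.4% of all genes. IL1A passed the filter on low counts only through shAHR#2 libraries (28 to 34 reads, and 0 to 7 in pLKO-GFP). It could therefore enter the shAHR#2 counts only as a rise. TNFRSF1A, the main receptor of TNF, rose from 132 ± 1.24 CPM to 307 ± 3.79 and 274 ± 9.85, by 1.21 and 1.05 (adjusted p = 4.81e-29 and 1.52e-26). TLR4, the receptor of bacterial lipopolysaccharide, rose by 1.58 and 1.08, and LTBR, a receptor that signals to the noncanonical route, by 0.53 and 0.68. TNFSF12 (TWEAK) fell by 0.99 and 0.51 and its receptor TNFRSF12A by 0.32 and 0.34. TNFSF10 (TRAIL) fell by 0.74 and 0.66. TNF was listed at 0 reads in every library, LTA at 0 or 1 read and LTB at 0 to 5 reads. IER3, of the target gene list below, was also at 0 reads in every library. Whether reads of these genes could be counted in this table was not tested, so 0 reads need not mean no transcript.

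Of 30 NF-kB target genes, 24 were tested. Under shAHR#2 there were 16 rises and 4 falls (median 0.56), and under shAHR#3 13 and 5 (median 0.28). Of all genes 32.6% and 26.9% were called higher, and 33.2% and 27.5% lower. The filter on low counts was passed only through hairpin libraries by BCL2A1 (0 or 1 read in pLKO-GFP) and CXCL3 (4 to 6). Both could therefore enter only as rises against the control. CSF3, at 0 to 2 reads with shAHR#3, passed it through the other groups and is among the falls there. Between the hairpins 4 of the 24 were higher and 12 lower with shAHR#3 (median -0.38), where 21.9% and 20.4% of all genes were. These lists were chosen with results of these data known, and the counts stand as a description. ICAM1, an adhesion molecule, rose from 44.9 ± 0.213 CPM to 127 ± 6.04 and 98.5 ± 2.08 (rises of 1.5 and 1.13, adjusted p = 1.26e-27 and 3.32e-23). The neutrophil chemokines CXCL8 and CXCL1 rose by 2.37 and 1.14 and by 2.34 and 1.49. BCL2L1, a survival gene, fell by 0.45 and 0.19, CFLAR, an inhibitor of caspase-8, by 0.51 and 0.40, and TNFAIP8 by 0.37 and 0.29. Between the hairpins, IL6 was 0.97 higher with shAHR#3 (adjusted p = 3.04e-07), its means being 4.71 ± 0.951 CPM in pLKO-GFP, 5.08 ± 1.06 under shAHR#2 and 9.84 ± 0.119 under shAHR#3. CSF2 was above the control with both hairpins but less with shAHR#3, at 3.36 ± 0.551, 11 ± 0.943 and 4.77 ± 0.262 CPM, a difference of -1.20 (adjusted p = 4.25e-10). CXCL2, at 25 to 77 reads per library, had a difference between the hairpins of -0.88 (adjusted p = 0.00168). Its means were 2.27 ± 0.534 CPM in pLKO-GFP, 3.8 ± 0.331 under shAHR#2 and 2.08 ± 0.874 under shAHR#3. For IL1R1, the receptor of interleukin 1, the difference was 0.52 (adjusted p = 2.49e-05), with means of 14.6 ± 1.3, 10.7 ± 1.09 and 15.3 ± 0.633 CPM. Of these 2 genes, CXCL2 was called higher and IL1R1 lower than the control under shAHR#2 (0.74 and -0.45). Neither was called under shAHR#3 (-0.135 and 0.07).

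**Figure D5:**
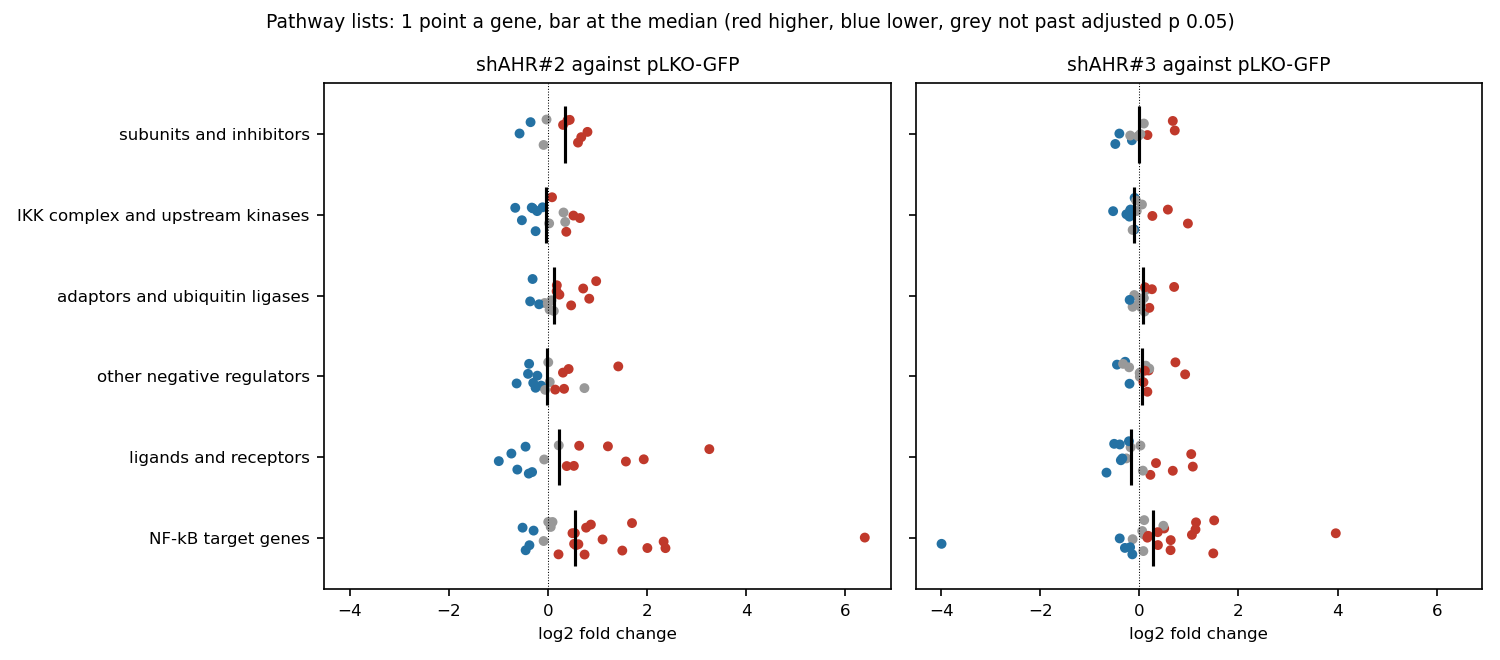
Log2 fold change (x axis) of the 10 subunit and inhibitor genes and of the tested genes of 5 pathway lists, with shAHR#2 (left) and shAHR#3 (right); points are genes, black bars list medians, and red, blue and grey mean higher, lower and not past an adjusted p of 0.05. The NF-kB target genes had the highest medians (0.56 and 0.28), and the outermost points, BCL2A1 and CSF3, are fitted values of genes at 0 to 2 reads in one of the groups compared.

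Genes with the pattern most like NFKBIA, by the root mean square difference of log2 CPM relative to the control over the 9 libraries, were NFE2L3 (0.040), ALDH3A2 (0.041) and KLF3 (0.043), out of 11823 candidates. Their log2 fold changes were 0.77 and 0.67, 0.82 and 0.72, and 0.79 and 0.70. For NFKBIB, the member with the larger fall with both hairpins, they were TMEM175 (0.121), ACOT8 (0.131) and TSPYL2 (0.134), a looser likeness.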

How the data were processed

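Sequencing measured RNA in 9 libraries, 3 per group, prepared with a stranded poly(A) kit (input 500 ng) and read from a single end. Reads were mapped with STAR to GRCh38.p13, and the authors deposited raw counts for each gene, whole numbers with no normalization. The submitters' processing notes also list featureCounts of Subread. Its version, the annotation release and the strand setting are not given in the sources used here.

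From the counts, genes were kept by filterByExpr (minimum count 10, minimum total count 15), scaled by TMM and tested with edgeR 4.0.16 (glmQLFit, glmQLFTest) in R 4.3.3, in 1 fit of all 9 libraries with a mean per group. DESeq2, which the study used, was an alternative, run here in version 1.42.0. CPM were computed with TMM-scaled library sizes. Per-length levels, positions, neighbours within 1 Mb and exon overlaps used GENCODE release 44, which may not be the release of the authors. Intervals cover the fit's spread. Standard errors are the log2 fold change divided by the square root of F.

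The members, lists and the rule for named genes were chosen with earlier results of these data known. The rule took all 10 members, AHR, up to 3 rises and 3 falls per list shared by both hairpins with a mean log2 CPM no lower than 1, ordered by the smaller of the changes, the 3 largest differences between hairpins in each direction over the lists, and the 3 genes most like the members with the largest shared rise and fall. The fit was tested on simulated data for shAHR#2 against pLKO-GFP, in which 200 of 14274 genes were changed. It recovered 152 of the 200 and called 6 unchanged genes. Of the 111 changed at least 1.5-fold with a mean of at least 50 counts it recovered 106. In the real comparison 65.8% of genes were called, so the simulation cannot say how the fit behaves when so many genes change. Within groups, replicate libraries varied more than read sampling alone gives (chi-square over its degrees of freedom, 1.75 to 4.15). That spread was still small, with a common biological coefficient of variation of 2.96% in the fit, so small changes can pass the threshold. Alternatives were other size factors, other filters, only the groups compared, a replicate block, each library left out and an adjusted p under 0.01. The per-length union of exons was chosen after seeing the data.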

Additional observations from a re-analysis of the deposited data

Results flagged for a closer look

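The hairpins gave different changes, by the direct test of shAHR#3 against shAHR#2 in the edgeR fit, for 28 of 41 genes, the 10 members and the 31 list genes named. Of all genes 42.3% were called in that comparison, and 6 of the 28 (IL6, IL1R1, TNFSF12, CXCL8, CSF2 and CXCL2) were named for a large difference between the hairpins, so the count is no result about these genes. Negative values are lower with shAHR#3. Among the subunits and inhibitors the log2 differences were -0.12 for NFKB1, -0.14 for NFKB2, -0.58 for RELB, -0.42 for REL, -0.12 for NFKBIA, -1.09 for TNFAIP3 and 0.32 for BCL3. Among kinases they were 0.33 for MAP3K14, -0.25 for IKBKB, 0.46 for TBK1 and 0.15 for RIPK1. Adaptors and regulators differed by -0.27 for BIRC3, -0.46 for BCL10, -0.27 for TRAF3, -0.69 for NFKBIZ and -0.14 for OTUD7B. Receptors and ligands differed by -0.50 for TLR4, -0.17 for TNFRSF1A, 0.15 for LTBR, 0.48 for TNFSF12 and 0.52 for IL1R1. Target genes differed by -0.84 for CXCL1, -1.23 for CXCL8, -0.37 for ICAM1, 0.26 for BCL2L1, 0.97 for IL6, -1.20 for CSF2 and -0.88 for CXCL2. Single libraries decided some of the smaller ones: TNFSF12 lost its call without shAHR#2 replicate 2 (0.41) or shAHR#3 replicate 3 (0.39), and RIPK1 without shAHR#2 replicate 3 (0.12) or shAHR#3 replicate 1 (0.12). For NFKB1 and NFKB2 the libraries are named above. The AHR level also differed between the hairpins, by 0.195 on the log2 scale (adjusted p = 0.00283), or 0.125 without shAHR#3 replicate 2 (adjusted p = 0.0604), and the part of that in these differences was not tested.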

How the results depend on the processing

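Of 480 values of the 10 genes under the alternatives, 452 kept their direction and their side of the threshold, 21 lost it, 3 gained it and 4 changed sign, all 4 without one library. The sign changed for RELA with shAHR#3 (-0.052 to 0), REL with shAHR#3 (-0.047 to 0.071) and NFKBIB between hairpins (-0.005 to 0.336), none of them called. Among the other named genes 12 values near 0 changed sign, each without one library: IL6 with shAHR#2 (range -0.069 to 0.273), CXCL2 with shAHR#3 (-0.48 to 0.142) and, between hairpins, TAB3 (-0.053 to 0.03), CYLD (-0.101 to 0.01), TNFSF10 (-0.013 to 0.158), TNFRSF12A (-0.071 to 0.006) and MALT1 (-0.062 to 0.028). The number of members lower with shAHR#2 went from 2 to 1 when pLKO-GFP replicate 2 or shAHR#2 replicate 3 was left out (range 1 to 2), NFKBIE losing its call in the former case and NFKBIB in the latter. The number called at 1.5-fold between hairpins went from 1 to 2 with DESeq2, with DESeq2 size factors in edgeR, and without one library (1 to 2), RELB being at that limit. With a mean of at least 50 counts fewer genes were tested, and 1209 genes were called at 1.5-fold with shAHR#3 and 819 between hairpins, against 2027 and 1317. An adjusted p under 0.01 left 7 of 11 ligands and receptors with shAHR#3 and 3 of 5 other negative regulators between hairpins. Deviations of same-numbered replicates of different groups had r from -0.14 to 0.11 over 5930 genes, and those of different number -0.185 to 0.222. A shared batch that touches fewer genes would not be seen this way. With the replicate number as a block the members called were 8, 5 and 7 in place of 8, 6 and 7, NFKBIB with shAHR#3 being lost (-0.40). NFKBIB, with 35 to 96 reads per library, had standard errors of 0.17 to 0.19.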

Other observations

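Some other genes of the lists, chosen after their values were seen, were higher with shAHR#2 than with shAHR#3, as TNFAIP3 was. TRAF1, an adaptor and NF-kB target gene, was at 10.6 ± 0.509 CPM in pLKO-GFP, 18.8 ± 1.88 with shAHR#2 and 10.8 ± 0.376 with shAHR#3 (SD, n = 3), and differed between the hairpins by -0.81 (adjusted p = 1.92e-09, edgeR). IL1B, a cytokine that activates NF-kB, was at 0.626 ± 0.0299, 2.43 ± 0.897 and 0.520 ± 0.139 CPM, a difference of -2.20 (adjusted p = 7.92e-07). This is a low gene, with 11 to 13, 30 to 54 and 7 to 12 reads per library. Its mean log2 CPM of 0.3 is under the limit of 1 set for the named genes. SOD2, a mitochondrial antioxidant enzyme, was at 113 ± 3.38, 207 ± 4.48 and 147 ± 5.01 CPM, and rose with both hairpins (0.87 and 0.38). BCL2A1, a survival gene, was at 0 or 1 read per pLKO-GFP library, 32 to 35 with shAHR#2 and 6 to 9 with shAHR#3, so it was at least 12.9-fold and at least 2.35-fold higher against a floor of 3 reads per library. CSF3 was at 13 to 21 reads in pLKO-GFP and 0 to 2 with shAHR#3, at least 5.93-fold lower.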
